A study of Mus musculus with 6 samples.

Results

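The genes described here encode the mitochondrial respiratory chain and ATP synthase. They were found by gene name, as the subunits and assembly factors of complexes I to V, and were kept where at least 10 counts were present in 3 or more of the 6 libraries. Of 55487 genes in the files, 140 matched by name and 119 were kept, of which 108 are nuclear and 11 are mitochondrially encoded. By comparison, 18376 genes of the whole data set met the same count minimum. The nuclear members kept are 80 structural subunits, 21 assembly factors and 7 pseudogenes or copies.

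Polyadenylated RNA was sequenced from crypt cells isolated from the colon of C57BL/6 mice aged 4 weeks, and each library is taken as 1 mouse. The 3 control libraries came from M14(f/f) mice, in which both copies of M14 are flanked by loxP sites, and the 3 mutant libraries came from mice with the same flanked copies that also carried Villin-Cre. Villin-Cre drives Cre recombinase in the epithelium of the gut, and other cells of a crypt preparation keep the gene. M14 is read here as Mettl14, a subunit of the complex that writes N6-methyladenosine on RNA. Which exons are flanked is not in the labels. Cre was present in mutants only, and its own effect cannot be told apart from that of the deletion. Mettl14 had 23.0 ± 2.78 CPM (counts scaled to library size; SD, n = 3) in controls against 12.8 ± 1.96 CPM in mutants, a log2 fold change of -0.85 in the edgeR fit (adjusted p = 0.000622).

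Library totals ran from 24181631 to 35183636 counts, and a count of 0 allows up to 0.0853 to 0.124 CPM (3 counts), which covers counting error only. Library mutant 1 stood apart in sex-linked genes, with 0.54 CPM of the Y-linked gene Ddx3y against 38.0 to 58.4 CPM in the other 5 libraries. Xist, the RNA of the inactive X chromosome, stood at 652 CPM in mutant 1 and 53.1 CPM in mutant 2, against 1.28 to 1.77 CPM in the other 4 libraries. Mutant 2 thus held both Xist and Y-linked RNA (Ddx3y at 38.0 CPM), which is not usual for 1 mouse. That each library is 1 mouse, on which n = 3 rests, is an assumption, and for mutant 2 it is in doubt. The labels give no sex, and its part in the results was not tested, but counts are also given with both of these libraries left out. Epithelial markers were abundant in all libraries, with a summed level of 10 genes of 10881 to 12381 CPM in controls and 8797 to 10642 CPM in mutants. Every mutant sum lay below every control sum, and 4 of the 10 were lower and 2 higher. Markers of absorptive colonocytes, the differentiated surface cells, summed to 10480 to 11939 CPM in controls and 5063 to 6646 CPM in mutants and 6 of the 10 were lower. Goblet cell markers summed to 21576 to 25247 CPM in controls and 12571 to 13572 CPM in mutants, with 5 of 8 lower and 1 higher. Markers of fibroblasts and endothelium summed to 204 to 237 CPM in controls and 104 to 123 CPM in mutants, with 4 of 10 lower and 2 higher. Markers of macrophages and dendritic cells summed to 20.3 to 27.0 CPM in controls and 50.5 to 73.8 CPM in mutants, with 12 of 14 higher and 1 lower. Neutrophil markers, 4 of 5 tested higher, summed to 9.39 to 13.2 CPM in controls and 13.3 to 40.1 CPM in mutants. Most of these sums was Ly6g, at 8.22 to 12.9 CPM in controls and 11.1, 34.3 and 27.9 CPM in mutants 1 to 3. For Ly6g, mutant 1 thus lay within the controls. T, B and plasma cell markers, 1 of 7 tested higher, summed to 4.54 to 6.29 and 6.34 to 10.005 CPM. For comparison, 23.5% of all tested genes were called higher and 22.8% lower. The part of these marker differences in the results below was not tested. In such bulk samples, fewer cells of a type and less RNA per cell cannot be told apart.

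Complexes I to IV carry electrons from NADH and succinate to oxygen, and complexes I, III and IV move protons across the inner mitochondrial membrane as they do so. Complex V, the ATP synthase, lets the protons flow back and makes ATP. Most subunits are encoded in the nucleus, a few core subunits are encoded on mitochondrial DNA, and complex II is nuclear throughout. Assembly factors help to build a complex and are not part of the finished enzyme. Colonocytes oxidise butyrate from gut bacteria as a main fuel.

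In complexes I, II and V nuclear structural subunits fell and none passed the test as higher, while subunits of complexes III and IV moved both ways. The assembly factors Sdhaf1 and Ndufaf4 and the subunit Ndufa4 rose most among nuclear members. The neighbouring mitochondrial genes mt-Nd1 and mt-Nd2 rose, while mt-Co1, mt-Cytb, mt-Nd4 and mt-Nd5 did not pass the test. Of the 118 members tested, 14 rose, 38 fell and 66 did not pass the threshold (edgeR quasi-likelihood F test, Benjamini-Hochberg adjusted p under 0.05 over all genes). Over all 18539 tested genes, 46.3% were called, 23.5% higher and 22.8% lower. Of the 80 nuclear structural subunits, 5 rose and 36 fell (45.0% lower), with a median log2 fold change of -0.24, against 0.01 over all tested genes. The log2 fold change was below zero for 68 of these 80, and for 34 of them every mutant lay below every control. Over all tested genes the groups did not overlap for 56.9%, with mutants lower for 28.2% and higher for 28.7%. Of the 21 assembly factors, 5 rose and 2 fell, with a median of 0.08. The share of them that rose, 23.8%, was near the 23.5% over all tested genes. Of the 11 mitochondrially encoded members, 4 rose and 0 fell, with 0 lower also at an unadjusted p of 0.05 and in DESeq2 and limma-voom. With no filter on low counts 5 were called higher and 1 lower, the added calls being mt-Co2 and mt-Atp6. None of the 6 tested pseudogenes and copies was called. With mutants 1 and 2 left out, 4 structural subunits rose and 30 fell, 5 assembly factors rose and 1 fell, and 2 mitochondrially encoded members rose.

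**Figure D1:**
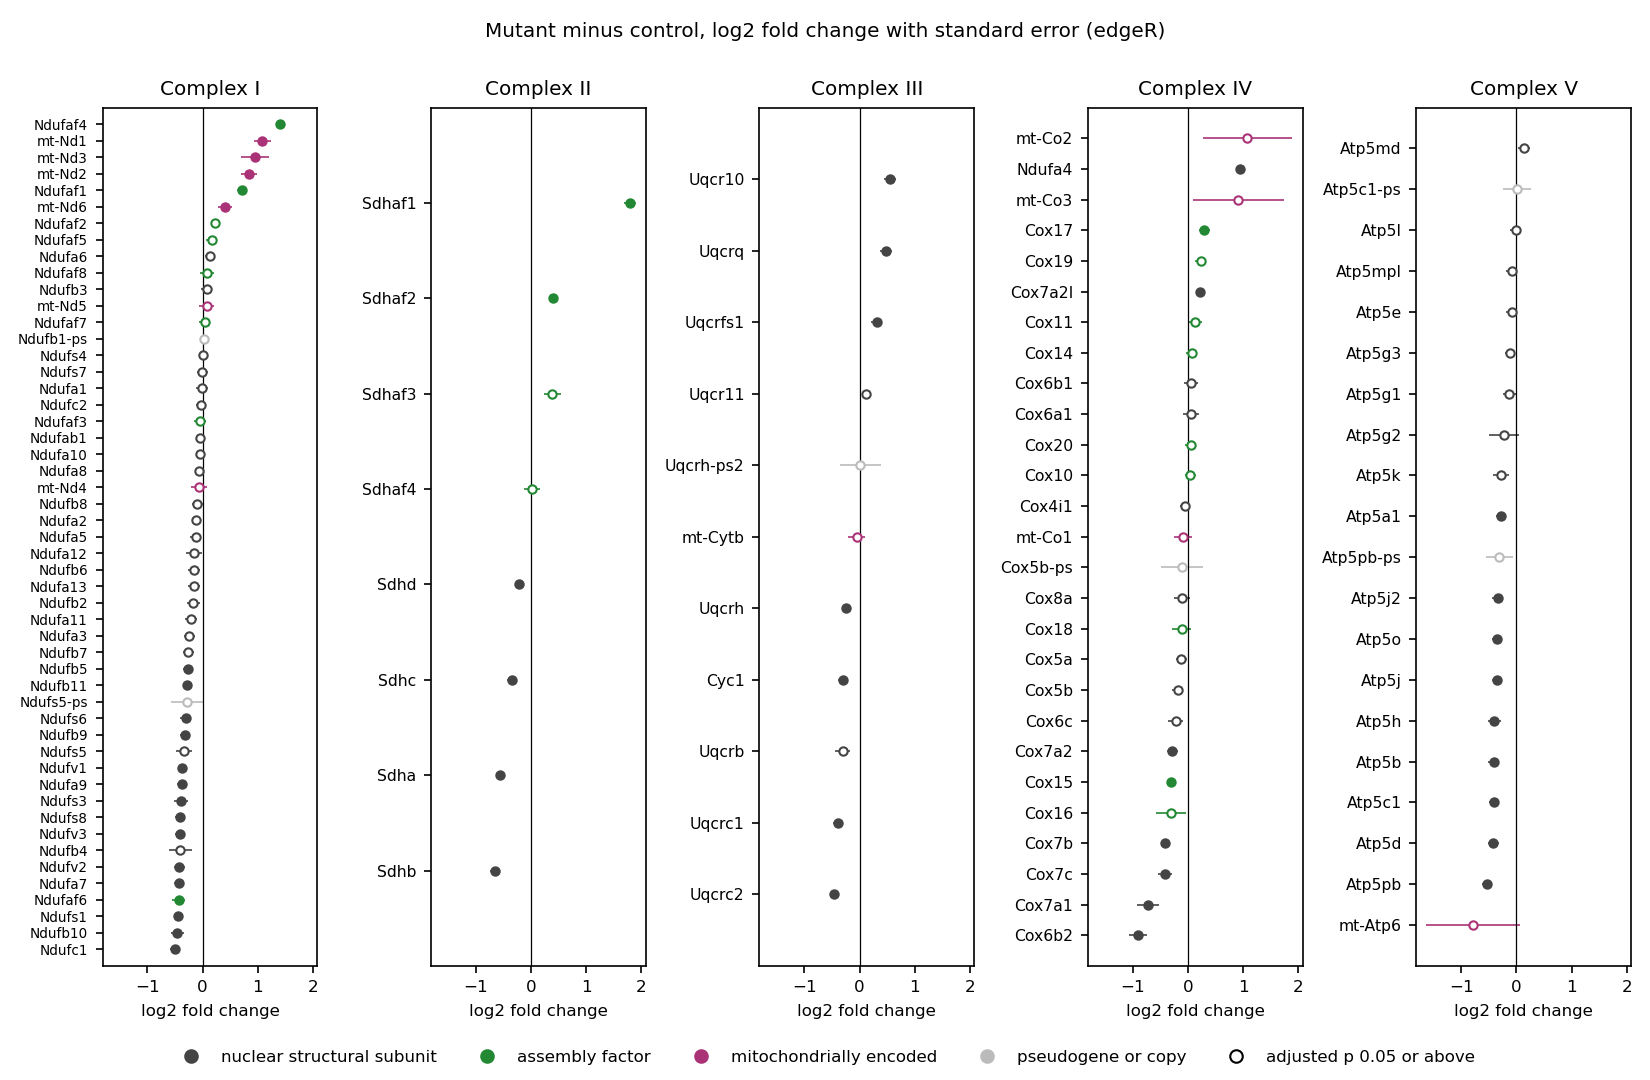
Log2 fold change (mutant minus control) with its standard error for the tested members reported singly, in 1 panel per complex. Filled points passed the adjusted threshold of 0.05. Dark points of nuclear structural subunits lie mostly left of zero, and Sdhaf1 and Ndufaf4, both assembly factors, lie farthest to the right.

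The sums of the nuclear structural subunits differed by complex. The 80 genes together stood at 13763 ± 1197 CPM (SD, n = 3) in controls and 11790 ± 380 CPM in mutants, a change of -14.3%. Control 2, at 12512 CPM, was close to mutant 2, at 12222 CPM, but the groups did not overlap. The change of the sum was -28.4% for complex II, -20.6% for complex V, -13.7% for complex I, -5.99% for complex IV and -1.42% for complex III. The sums of complexes I, II and V did not overlap between groups, and those of complexes III and IV did.

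**Figure D2:**
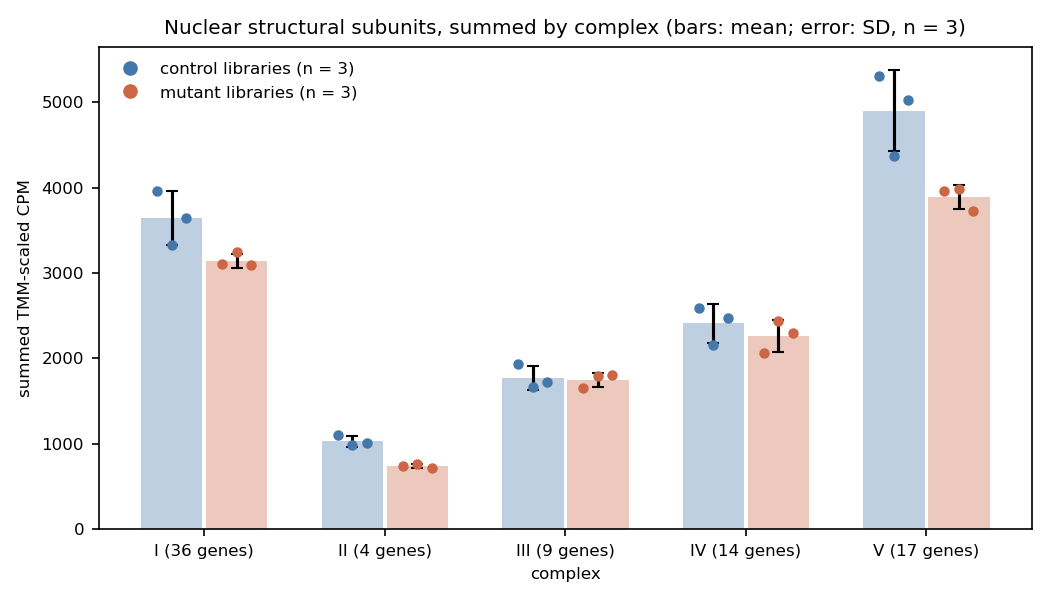
Summed TMM-scaled CPM of the nuclear structural subunits of each complex, with bars at the mean, error bars of 1 SD (n = 3) and a point per library. Complex V has means of 4904 and 3894 CPM, while the points of complex III, at means of 1773 and 1748 CPM, overlap.

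The upstream sequence is shown for 4 members, the 2 with the largest rises and the 2 with the largest falls among called genes whose window held no annotated exon and whose RefSeq start lay within 50 bases of the start in the files. Each runs from 250 to 51 bases before the RefSeq start (GRCm38.p6), read along the gene's strand: Ndufaf4 at chr4:24897833-24898032 on the plus strand, Ndufa4 at chr6:11907501-11907700 on the minus strand, Ndufc1 at chr3:51409006-51409205 on the minus strand, and Cox7a1 at chr7:30183921-30184120 on the plus strand. Capitals mark matches on either strand to 7 motifs: NRF1 (GCGCA and GCGC with any base between them), ETS (CCGGAAGT), YY1 (AAGATGGC), the E-box (CACGTG), CRE (TGACGTCA), ATF4 (TGATGNAA) and the CCAAT box (CCAAT). NRF1, the nuclear respiratory factor, binds promoters of many respiratory genes.
Ndufaf4: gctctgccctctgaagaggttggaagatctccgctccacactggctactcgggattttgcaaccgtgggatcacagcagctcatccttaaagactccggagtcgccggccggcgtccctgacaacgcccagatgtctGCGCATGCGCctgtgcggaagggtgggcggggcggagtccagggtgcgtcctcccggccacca
Ndufa4: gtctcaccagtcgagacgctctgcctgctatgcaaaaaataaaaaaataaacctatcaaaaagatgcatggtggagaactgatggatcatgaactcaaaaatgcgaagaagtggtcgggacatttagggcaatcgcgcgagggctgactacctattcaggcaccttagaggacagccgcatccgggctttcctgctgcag
Ndufc1: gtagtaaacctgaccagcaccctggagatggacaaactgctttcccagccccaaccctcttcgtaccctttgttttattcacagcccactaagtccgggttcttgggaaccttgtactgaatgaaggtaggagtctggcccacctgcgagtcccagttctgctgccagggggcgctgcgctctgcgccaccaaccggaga
Cox7a1: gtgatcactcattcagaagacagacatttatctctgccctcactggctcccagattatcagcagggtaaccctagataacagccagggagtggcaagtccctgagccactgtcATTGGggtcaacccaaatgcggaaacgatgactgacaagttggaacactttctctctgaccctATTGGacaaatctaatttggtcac

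Ndufaf4 held an NRF1 match 113 bases before its start, Cox7a1 held CCAAT matches at 137 and 74 bases before, and the printed 200 bases of Ndufa4 and Ndufc1 held none of the 7. Ndufc1 has a YY1 match nearer its start, outside the printed bases. Over the 300-base windows of RefSeq, from 250 before to 50 after the start, 85 nuclear members without copies matched a promoter. The NRF1 motif was in 23.5% of these and in 9.61% of the 11968 promoters of tested genes, and the YY1 motif was in 14.1% and 4.28%. ETS stood at 10.6% and 7.58%, the E-box at 7.06% and 9.66%, CRE at 4.71% and 3.06%, and CCAAT at 42.4% and 38.6%. ATF4 was in 0 of 85 and in 2.26% of all. NRF1 matches were in 1 of the 8 promoters of members that rose, 6 of the 31 of members that fell and 13 of the 46 of members not called. These windows were not limited to RefSeq starts near those in the files. Among members that rose, the starts of Cox7a2l, Sdhaf1 and Sdhaf2 differed by 2997, 1520 and 933 bases. Among members that fell, those of Atp5d, Atp5pb and Atp5j2 differed by 3643, 836 and 521 bases. Among members not called, those of Cox19, Atp5g2 and Ndufa13 differed by 6252, 1305 and 538 bases. These are letter matches, which do not show binding.

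In complex I, which oxidises NADH, 14 of the 36 nuclear structural subunits fell and 0 rose (0 higher also at an unadjusted p of 0.05 and in DESeq2 and limma-voom). The share that fell was 38.9%, against 22.8% of all tested genes. Of the 7 nuclear core subunits, which hold the flavin and iron-sulphur centres, 5 fell. Ndufs1, the largest iron-sulphur subunit, stood at 176, 167 and 174 CPM in controls 1 to 3 and 128, 133 and 117 CPM in mutants 1 to 3. The mutants were all below the controls, and the log2 fold change was -0.45 ± 0.07 (SE; edgeR adjusted p = 0.000841). Ndufv2, also of the core, stood at 298, 248 and 275 CPM in controls and 218, 207 and 188 CPM in mutants, a log2 fold change of -0.42 ± 0.09 without overlap. Ndufs7, at the ubiquinone site, stood at a log2 fold change of 0.00 ± 0.10 and was not called.

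Of the 29 accessory subunits of complex I, 9 fell (31.0%, against 22.8% over all tested genes). Ndufc1 stood at 55.3, 47.7 and 56.4 CPM in controls and 38.0, 38.9 and 35.5 CPM in mutants, the largest fall in the complex at -0.50 ± 0.08 (edgeR adjusted p = 0.000868). Ndufv3 fell from 128, 109 and 128 CPM to 88.4, 98.4 and 88.6 CPM. Ndufs4, often mutated in human complex I deficiency, had 158 ± 10.3 CPM in controls against 158 ± 1.96 CPM in mutants, a log2 fold change of 0.00 ± 0.07.

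Of the 8 complex I assembly factors, 2 rose (25%, near the 23.5% over all tested genes) and 1 fell. Ndufaf4 (chr4:24898083-24905001, plus strand, GRCm38), which acts in early assembly of the complex, stood at 40.8, 37.8 and 40.0 CPM in controls and 107, 99.0 and 109 CPM in mutants. Each mutant was more than 2 times each control, with a log2 fold change of 1.41 ± 0.07 (edgeR adjusted p = 6.72e-07). Ndufaf1, which acts with the membrane arm, stood at 15.4, 13.3 and 13.5 CPM in controls and 22.5, 22.6 and 23.7 CPM in mutants, a log2 fold change of 0.71 ± 0.09. Ndufaf6 stood at 8.90, 8.28 and 8.45 CPM in controls and 6.30, 6.20 and 6.48 CPM in mutants, a fall of 0.43 on the log2 scale. Within a library, counts per kilobase of Ndufaf4 relative to Ndufs1 were 0.475 ± 0.00495 in controls and 1.73 ± 0.191 in mutants. Because Ndufs1 fell, this ratio combines both changes and is not separate evidence of the rise.

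All 4 subunits of complex II, succinate dehydrogenase, fell. Sdhb (chr4:140961203-140979193, plus strand), the iron-sulphur subunit, stood at 215, 188 and 192 CPM in controls and 117, 134 and 126 CPM in mutants, a log2 fold change of -0.66 ± 0.08 (edgeR adjusted p = 0.000167). Sdha, the flavoprotein, stood at 537, 496 and 489.8 CPM in controls and 349, 351 and 333 CPM in mutants, a log2 fold change of -0.56 ± 0.08. Neither gene overlapped between the groups. The membrane anchors fell less, Sdhc by 0.35 and Sdhd by 0.21 on the log2 scale. Sdhd was not called under library-total scaling, without control 1, control 3, mutant 2 or mutant 3, or with mutants 1 and 2 left out.

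Of the 4 complex II assembly factors, 2 rose (50%, against 23.5% over all tested genes), 0 fell and 2 were not called. Sdhaf1 (chr7:30321406-30323895, minus strand), which helps to place iron-sulphur clusters in Sdhb, stood at 22.9, 19.0 and 18.0 CPM in controls and 69.4, 63.7 and 75.3 CPM in mutants. It had the largest rise of all 118 members tested, 3.48-fold by the means and 1.80 ± 0.11 on the log2 scale (edgeR adjusted p = 1.77e-06). Of its bases, 69.6% are shared with an antisense gene, E130208F15Rik, which held 37 to 71 counts per library. Reads were counted by strand. Sdhaf2, which attaches the flavin of Sdha, stood at 27.7, 29.1 and 28.4 CPM in controls and 36.3, 35.6 and 40.4 CPM in mutants, a log2 fold change of 0.40 ± 0.08. Sdhaf3, at 4.71 ± 0.457 and 6.15 ± 0.243 CPM, had an adjusted p of 0.0536, and Sdhaf4 stood at 8.21 ± 1.45 and 8.32 ± 0.611 CPM. Counts per kilobase of Sdhaf1 relative to Sdhb were 0.0902 ± 0.00588 in controls and 0.500 ± 0.0622 in mutants. Sdhb itself fell, so this ratio combines both changes and is not separate evidence of the rise.

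**Figure D3:**
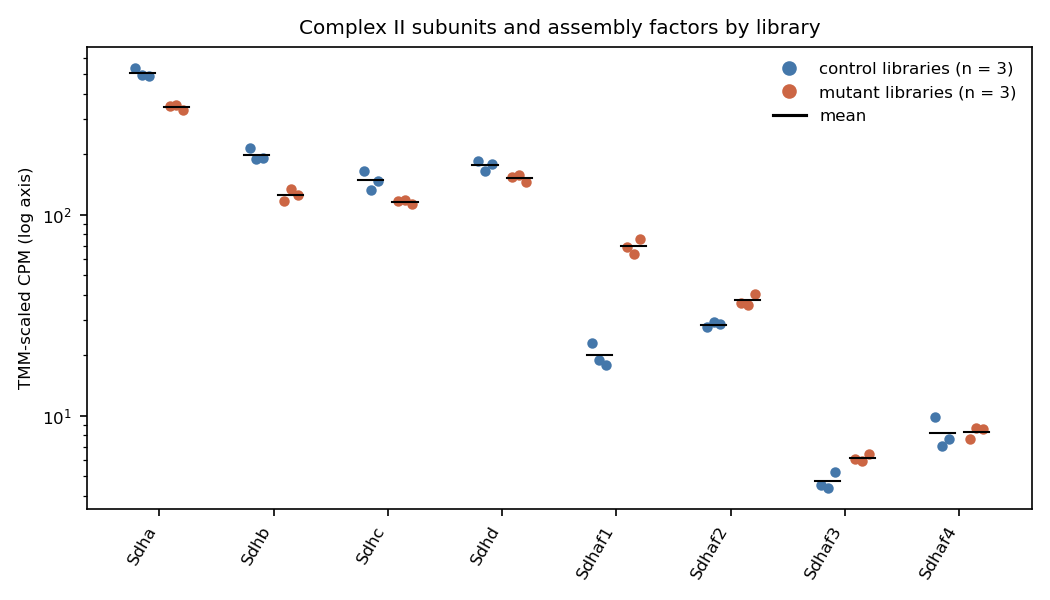
TMM-scaled CPM (log axis) of the 4 subunits and 4 assembly factors of complex II in each library, with a line at the mean of each group (n = 3). The subunits Sdha to Sdhd are lower in every mutant, and Sdhaf1 is higher in every mutant, at 63.7 to 75.3 CPM against 18.0 to 22.9 CPM.

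Complex III, which passes electrons from ubiquinol to cytochrome c, was split: of its 9 nuclear subunits 3 rose and 4 fell. These are 33.3% and 44.4%, against 23.5% higher and 22.8% lower over all tested genes. Under library-total scaling and without control 1 the counts were 3 and 2, without mutant 3 they were 2 and 2, and with mutants 1 and 2 left out they were 3 and 3. Uqcrc2, a large matrix-side subunit, stood at 191, 168 and 169 CPM in controls and 124, 132 and 127 CPM in mutants, a log2 fold change of -0.47 ± 0.08 (edgeR adjusted p = 0.000874). Its partner Uqcrc1 fell by 0.40, Cyc1 (cytochrome c1) by 0.30 and Uqcrh by 0.25 on the log2 scale. The calls of Cyc1 and Uqcrh were lost under library-total scaling and without control 1 or mutant 3. Uqcr10, a small membrane subunit, stood at 180.2, 143 and 141 CPM in controls and 204, 236 and 243 CPM in mutants, a rise of 0.56 ± 0.11 (adjusted p = 0.00258). Uqcrq stood at 184, 152 and 188 CPM in controls and 211, 265 and 252 CPM in mutants, a rise of 0.47 ± 0.11. Every mutant was above every control for both. Uqcrfs1, the Rieske iron-sulphur protein, stood at 289.9, 254 and 248 CPM in controls and 294, 322 and 364 CPM in mutants, a rise of 0.31 ± 0.10 that was not called without control 2, control 3, mutant 2 or mutant 3. Counts per kilobase of Uqcr10 relative to Uqcrc1 were 2.89 ± 0.133 in controls and 5.64 ± 0.678 in mutants. This ratio, too, sets a member that rose over a member that fell and combines both changes.

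Complex IV, cytochrome c oxidase, passes electrons to oxygen, and 5 of its 14 kept nuclear subunits fell and 2 rose. These are 35.7% and 14.3%, against 22.8% lower and 23.5% higher over all tested genes. Without control 1, 2 fell and 2 rose. Without control 3, and likewise without mutant 3, 2 fell and 1 rose. Ndufa4 (chr6:11900292-11907497, minus strand), named for complex I but assigned to complex IV, stood at 49.2, 50.9 and 50.04 CPM in controls and 94.6, 96.9 and 96.9 CPM in mutants. The groups were far apart and tight, with a log2 fold change of 0.94 ± 0.06 (edgeR adjusted p = 3.85e-06). Its counts per kilobase relative to Cox4i1 were 0.0838 ± 0.00669 in controls and 0.168 ± 0.0117 in mutants. Cox7b stood at 318, 281 and 328 CPM in controls and 229.5, 245 and 223 CPM in mutants, a log2 fold change of -0.41 ± 0.08. Cox7c, at a lower level, fell by 0.42 on the log2 scale, a call that was lost without control 1, control 3 or mutant 3.

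Several complex IV subunits come as isoforms with tissue-specific partners. Of the Cox4 pair, Cox4i1 had 673 ± 45.3 CPM in controls against 646 ± 51.9 CPM in mutants and was not called, while Cox4i2 had 1 to 3 counts per library. Cox6a1 (231 ± 26.5 and 239 ± 49.4 CPM) and Cox6b1 (182 ± 23.4 and 189 ± 26.0 CPM) were not called, nor was Cox8a (320 ± 67.1 and 297 ± 38.6 CPM). Cox6a2, Cox7b2, Cox8b, Cox8c and Ndufa4l2 fell below the count minimum. Cox7b2 lay just outside it, with 13 counts in mutants 2 and 3 and 2 to 6 in the others, and the pseudogene Ndufa12-ps lay just inside, with 10, 12 and 14 counts in 3 libraries and 2 to 7 in the rest. Ndufa12-ps was kept but did not pass the filter of the test.

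The 2 largest falls that passed the test among all members were isoforms of complex IV at low levels. Cox6b2, in mammals known from testis, stood at 6.71, 6.797 and 6.78 CPM in controls and 3.67, 4.20 and 2.98 CPM in mutants, a log2 fold change of -0.91 ± 0.17 (edgeR adjusted p = 0.0016). Cox7a1, the isoform of heart and muscle, stood at 20.6, 13 and 20.6 CPM in controls and 9.47, 13.8 and 9.54 CPM in mutants. Control 2 lay below mutant 2, so the groups overlapped, and the call of -0.73 ± 0.20 (adjusted p = 0.0147) was lost without control 1 (0.0556), control 3 (0.0542) or mutant 3 (0.0579), against adjusted p-values of 0.00267 to 0.0438 in the other 3 such fits. Of the 8 tested markers of muscle and pericytes, 4 were lower, 1 was higher and 3 were not called. Des, Cnn1, Tagln and Myh11 fell by 1.02, 0.82, 0.70 and 0.40 on the log2 scale. Pdgfrb rose, with 7.95 to 9.62 CPM in controls and 21.99 to 23.25 CPM in mutants. The sums, 70.6 to 79.8 CPM in controls and 75.8 to 78.4 CPM in mutants, combine these opposite changes. The part of these markers in the result was not tested. Cox7a2, the widely expressed isoform, fell by 0.29, and Cox7a2l, a supercomplex factor, rose by 0.22. Among the fits that left out 1 library, the call of Cox7a2 was kept only without control 2. That of Cox7a2l was kept only without control 1. Cox7a2l was also not called in DESeq2, and Cox7a2 was not called under library-total scaling. Of the 9 assembly factors of complex IV, Cox17, a copper carrier, rose by 0.29 and Cox15, of haem A synthesis, fell by 0.30 on the log2 scale. The call of Cox17 was kept in 1 of the 6 fits that left out 1 library, the fit without mutant 1.

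**Figure D4:**
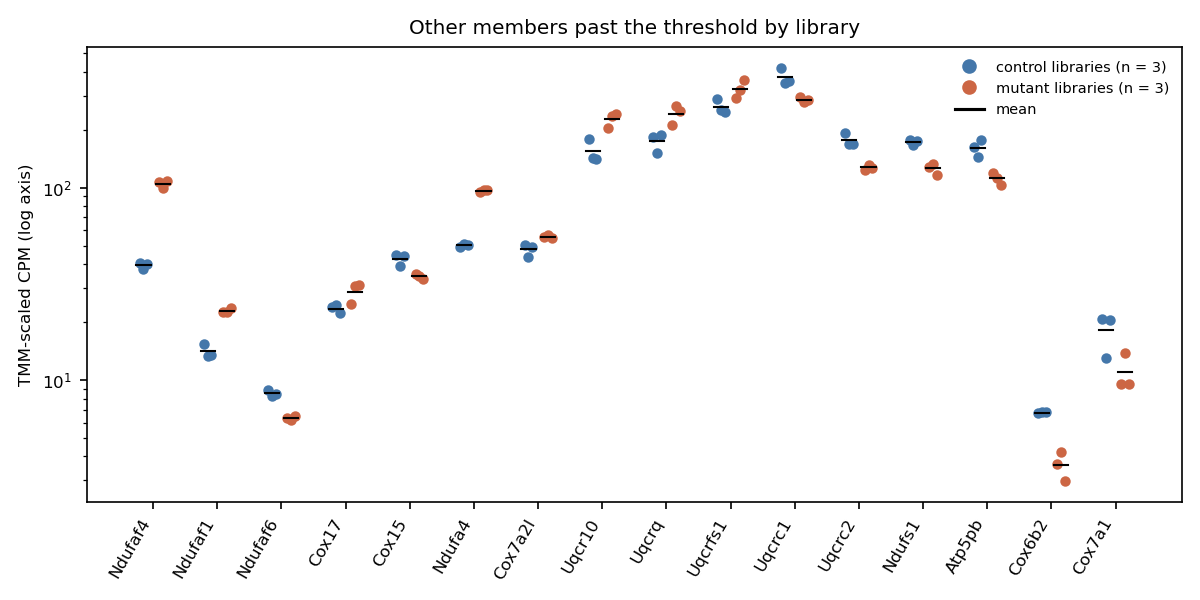
TMM-scaled CPM (log axis) in each library for 16 called members of complexes I, III, IV and V, with a line at the mean of each group (n = 3). Ndufaf4 and Ndufa4 show the widest gaps between groups, and only Cox7a1 among these 16 has overlapping groups.

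In complex V, 9 of the 17 nuclear subunits kept fell and 0 rose (0 higher also at an unadjusted p of 0.05 and in DESeq2 and limma-voom). The share that fell was 52.9%, against 22.8% of all tested genes. Of the 5 subunits of the F1 head 4 fell, and Atp5b, the catalytic beta subunit, stood at 1774, 1442 and 1739 CPM in controls and 1298, 1253 and 1174 CPM in mutants, a log2 fold change of -0.41 ± 0.10 (edgeR adjusted p = 0.00921). Atp5a1, its alpha partner, stood at 1356, 1147 and 1250 CPM in controls and 1063, 1020 and 1009 CPM in mutants. The groups did not overlap for either. Atp5c1 and Atp5d, of the central stalk, each fell by 0.42. Of the 12 membrane and outer stalk subunits, 5 fell, and Atp5pb, the b subunit, had the largest fall: 162, 144 and 177 CPM in controls against 119.6, 113 and 103 CPM in mutants, or -0.53 ± 0.09 (adjusted p = 0.00132). The 3 genes of subunit c, which forms the proton-driven ring, were not called: Atp5g3, the most abundant, stood at 294 ± 31.9 and 271 ± 19.0 CPM, Atp5g1 at 14.1 ± 1.38 and 12.9 ± 1.46 CPM, and Atp5g2 at 1.11 ± 0.151 and 0.953 ± 0.181 CPM.

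Of the 13 chain genes on mitochondrial DNA, 11 were kept. Per kilobase in controls, mt-Co1 was highest (10989 ± 1054 CPM per kilobase), then mt-Cytb (9360 ± 1217) and mt-Nd1 (8510 ± 402), and neighbours in this order overlapped between libraries. The most abundant nuclear member was Cox8a (518 ± 109). The order changed in mutants, where mt-Nd1 (18011 ± 3173) was first, ahead of mt-Co1 (10327 ± 1720). As CPM, mt-Nd1 stood at 8302, 7705 and 8424 in controls and 13733, 18885 and 19093 in mutants, a log2 fold change of 1.08 ± 0.15 (edgeR adjusted p = 0.000325). The next gene on the chromosome, mt-Nd2, stood at 3007, 3037 and 3718 CPM in controls and 5076, 6728 and 5670 CPM in mutants, a log2 fold change of 0.84 ± 0.14 (adjusted p = 0.000857). All mutants were above all controls for both genes.

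Other mitochondrial genes did not pass the test: log2 fold changes were -0.09 ± 0.16 for mt-Co1, 0.07 ± 0.14 for mt-Nd5, -0.05 ± 0.15 for mt-Cytb and -0.07 ± 0.15 for mt-Nd4. The ribosomal RNA genes just before mt-Nd1, mt-Rnr1 and mt-Rnr2, stood at 0.16 ± 0.19 and 0.44 ± 0.22 and were not called. mt-Nd6, on the other strand, stood at 51.5, 52.6 and 66.9 CPM in controls and 80.9, 81.0 and 64.0 CPM in mutants; it passed the test (0.40 ± 0.12, adjusted p = 0.0234), but mutant 3 lay below control 3, and the call was lost in 4 of the 6 fits that left out 1 library. Within each library, the counts per kilobase of mt-Nd1 relative to mt-Co1 were 0.865, 0.745 and 0.726 in controls and 1.71, 1.69 and 1.82 in mutants. The share of mitochondrially encoded counts taken by mt-Nd1 was 16.7% ± 1.11 in controls and 28.9% ± 1.73 in mutants, and that of mt-Nd2 was 6.63% ± 0.218 and 9.82% ± 0.571.

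A nuclear copy of mitochondrial DNA on chromosome 1 shares nearly all of mt-Co2, mt-Atp6, mt-Co3 and mt-Nd3, and 63.6% of mt-Nd4. Reads that fit both places were not counted, so levels of these genes are uncertain. mt-Co2 held 185, 38 and 25 counts in controls and 16, 160 and 298 in mutants, and mt-Co3 held 2 to 51 counts. Counts of mt-Atp6 ran from 20 to 521. For all 3 of these genes the groups overlapped and none was called, except that with no filter on low counts edgeR called mt-Co2 higher and mt-Atp6 lower. mt-Nd3 was called higher, at 66.2, 48.0 and 104 CPM in controls and 116, 181 and 122 CPM in mutants, but 98.3% of its bases lie in the copy and the call was lost without control 1 or mutant 2. mt-Nd4l and mt-Atp8 fell below the count minimum, mt-Atp8 with 110 counts in mutant 3 and 0 to 10 elsewhere.

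**Figure D5:**
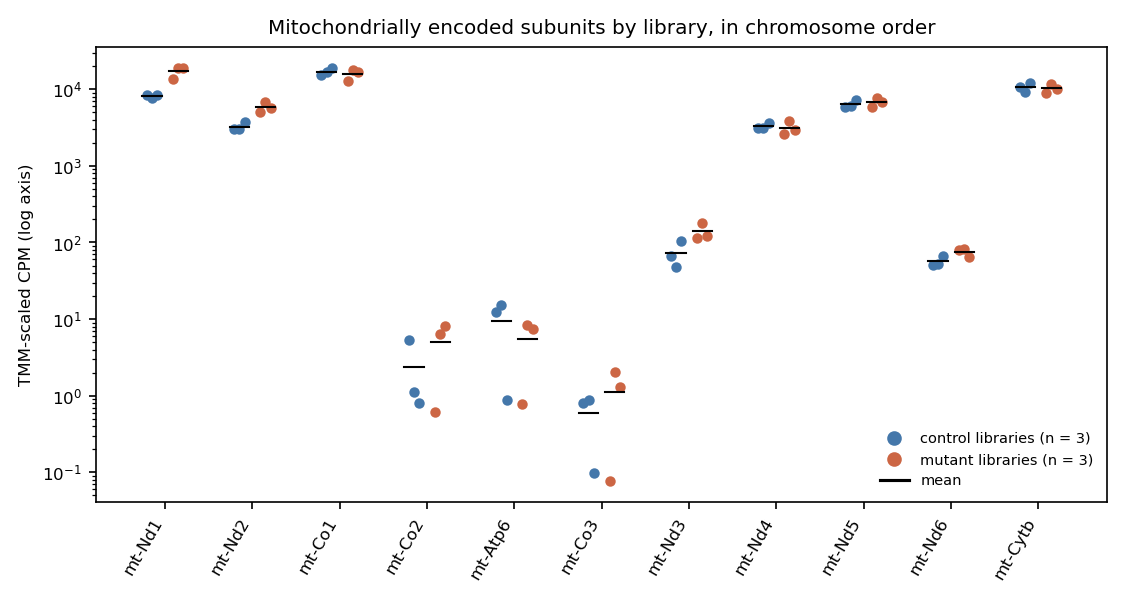
TMM-scaled CPM (log axis) of the 11 kept mitochondrially encoded subunits in each library, ordered along the mitochondrial chromosome, with a line at the mean of each group (n = 3). mt-Nd1 and mt-Nd2, at the left, are higher in every mutant, and mt-Co1, mt-Nd4, mt-Nd5 and mt-Cytb overlap between groups.

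The 11 members took 4.68, 4.41 and 5.21% of all counts in controls and 4.87, 6.96 and 6.48% in mutants. Mutant 1 lay among the controls, and the difference of means, 1.34 percentage points, had an exact permutation p of 0.2 (2-sided, 3 against 3 libraries, smallest possible 0.1). As a share of the counts of all chain members, they took 77.4% ± 2.00 in controls and 82.5% ± 2.01 in mutants, with an exact permutation p of 0.1. The share of a ribosomal RNA row, which also enters the totals, was 7.76 to 8.90% in controls and 12.9, 7.44 and 5.16% in mutants 1 to 3; without it the exact p was again 0.2.

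Outside the gene-name rule, 35 further genes listed as assembly factors of these complexes were tested, of which 7 rose and 12 fell. Their median log2 fold change was -0.13. Over all tested genes, 23.5% were called higher and 22.8% lower. Coa6, which acts on complex IV, rose from 14.98 ± 0.410 to 29.1 ± 2.43 CPM and Uqcc3, of complex III, from 16.4 ± 1.71 to 30.4 ± 1.92 CPM. Tmem186, of complex I assembly, fell from 30.9 ± 2.48 to 14.6 ± 2.94 CPM, and Dmac2 from 37.7 ± 2.98 to 22.9 ± 1.44 CPM. Of 21 electron carriers, coenzyme Q enzymes and bypass genes, 2 rose and 10 fell. Coq8a, of coenzyme Q synthesis, fell by 1.00 on the log2 scale, Sqor, which oxidises sulphide in colonocytes, by 0.81, and Etfdh, which feeds electrons from fat oxidation, by 0.59. Slc25a4, an ADP/ATP carrier, rose from 21.5 ± 1.59 to 53.8 ± 5.46 CPM.

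Of 13 tested regulators of respiratory genes, 4 rose and 6 fell, where 23.5% of all tested genes rose and 22.8% fell. Ppargc1a, the coactivator PGC-1alpha that promotes mitochondrial biogenesis, fell from 71.5 ± 3.51 to 34.6 ± 1.90 CPM, or -1.05 ± 0.07 on the log2 scale (edgeR adjusted p = 5.23e-06). Ppara, a nuclear receptor for fat oxidation, fell by 1.35 and Esrra, a partner of PGC-1alpha, by 0.37. Mlxipl fell by 0.87, while Pprc1 rose by 0.54 (edgeR adjusted p = 0.00135). Nrf1 and Gabpa, factors of the NRF1 and ETS motifs, rose by 0.30 and 0.21, and Yy1 stood at 134 ± 2.57 and 134 ± 2.80 CPM. Of 20 genes of mitochondrial DNA transcription and RNA processing, 5 rose and 6 fell, close to the shares over all tested genes. Polrmt, the RNA polymerase, fell by 0.32, and Tefm, its elongation factor, rose by 0.56. Of 17 genes of general mitochondrial content, 3 rose and 5 fell, also close to those shares, with a median of -0.04. Phb, a prohibitin, fell by 1.01 and Vdac3, an outer membrane channel, by 0.85, while Tomm40, the import pore, rose by 0.43. The summed level of these 17 was 2480 to 2672 CPM in controls and 2363 to 2582 CPM in mutants.

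Nuclear members were short transcripts, with a median longest transcript of 1232 bases against 2901 over all tested genes. GGACT, a form of the N6-methyladenosine motif, was in 74.3% of 101 of them and in 85.5% of all. It was in 100% of the 10 members that rose, 81.6% of the 38 that fell and 64.2% of the 53 not called, whose median lengths were 1499.5, 1240.5 and 983 bases. Length differed along with the motif, and its part in these shares was not tested.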

How the data were processed

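The authors deposited raw gene counts, 1 file per library. The submitters' processing notes name Trim Galore 0.6.5 for trimming, and STAR 2.6.1d and the build GRCm38 for alignment. Per the file headers, paired fragments were counted by strand with featureCounts 1.6.4 against GENCODE vM25, without reads that map to several places. Libraries were stranded, per the labels' protocols. The deposited counts entered edgeR 4.0.16 (R 4.3.3), with filterByExpr (minimum count 10, minimum total 15), TMM scaling, and a quasi-likelihood F test of genotype alone, with p-values adjusted by Benjamini-Hochberg over 18539 genes and a threshold of 0.05. CPM values are TMM-scaled. Standard errors were derived from the log2 fold change and the F statistic. The script was tested on simulated data. DESeq2 1.42.0 and limma 3.58.1 were alternatives. Shared bases were found with BLAST 2.17.0 as exact runs of 50 bases or more in reference transcripts of other genes. GGACT was counted in the longest reference transcript of each gene. The reference transcripts were of GENCODE vM21, an earlier release than that of the counts.

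The members and gene lists were chosen with earlier results of these data known. Named are Mettl14, the mitochondrially encoded members, isoform groups, per complex and assembly group up to 4 rises and 4 falls with the smallest p, the 5 largest rises and falls, and up to 4 genes per pathway list. Ndufs4, Ndufs7, Ndufa12-ps, Sdhaf3, Sdhaf4, Atp5a1, Esrra, Nrf1, Gabpa, Yy1, mt-Rnr1 and mt-Rnr2 fall outside that rule and were chosen after their values were seen. The values of 1 member are not reported here, though it is in the counts and sums. No library repeats another: chi-square per gene between libraries of a group was 12.3 to 76.0.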

Additional observations from a re-analysis of the deposited data

How the results depend on the processing

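Members called higher and members called lower numbered 14 and 38. They numbered 9 and 20 at an adjusted p of 0.01, and 4 (Sdhaf1, Ndufaf4, Ndufa4 and mt-Nd1) and 0 against a 1.5-fold change (edgeR glmTreat; 1 lower at an unadjusted p of 0.05), where 2747 genes in all were called. Leaving out 1 library gave 9 (without mutant 2) to 13 higher and 25 (without control 1) to 46 (without control 2) lower, and without mutant 3 there were 26 lower. Of nuclear structural subunits, 23 to 44 then fell. The median log2 fold change of nuclear members was -0.16, with -0.12 to -0.25 on leaving out 1 library (-0.25 without control 2) and -0.26 with mutants 1 and 2 left out, where the lone mutant is assumed to vary like the controls. With library-total scaling 17 rose and 26 fell, and 59.0% of all calls were higher against 50.7%; the median over all genes was then 0.08, and 0.19 with no filter. The mitochondrially encoded share of counts was 0.908 to 1.95 percentage points higher in mutants on leaving out 1 library. Replicate numbers did not pair the libraries (correlations of same-numbered deviations -0.12, -0.07 and -0.14), and no library correlated best with its own number. With a replicate block 10 members rose and 31 fell, of 7403 genes called. No direction of a called named gene reversed. Levels as TPM, in place of CPM per kilobase, were not run. The cause of these changes was not tested.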
